A study of Homo sapiens with 14 samples.

Results

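The binding regions described here are the distal intragenic NF-κB regions of L1236 cells at which p50 and p52 were balanced. They are the regions that overlapped a gene, lay more than 10 kb from the closest transcription start site (TSS) and had a log2 ratio of p50 to p52 reads between -0.7 and 0.7. For this ratio 1 read was added to each count, and the counts were divided by the sum over all regions of the subunit. Of the 14865 regions in the union of all subunits, 8625 (58.0%) overlapped a gene, 4348 of these lay more than 10 kb from a TSS, and 2237 of the latter were balanced. The balanced distal intragenic regions thus made up 15.0% of all regions and 51.4% of the distal intragenic regions. A log2 ratio of 0.7 corresponds to a 1.62-fold difference. Because the p50 and p52 reads chose the regions, all values of p50 and p52 are given as a description, and the comparisons rest on RelB and RelA, which the choice did not use.

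L1236 is an established cell line from a Hodgkin lymphoma, a malignancy of B cell origin with constitutively active NF-κB. The labels name no treatment and no engineered cells, so that the comparisons are between subunits and between regions of the same cells. Each of the subunits p50, p52, RelB and RelA (p65) was immunoprecipitated in 2 replicates, those of p52 with different antibodies, and 6 libraries of input DNA served as background. The methods of the study call the replicates biological, and the labels do not say whether they came from separate cultures. In the deposited table the reads, calls and fold enrichments are those of the merged replicates, and only a signal value is given per replicate. The union regions held 1654137 reads of p50, 1810792 of p52, 470788 of RelB and 315151 of RelA. The values of RelB and RelA thus rest on fewer reads than those of p50 and p52.

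NF-κB proteins bind DNA as dimers at κB sites, which lie in promoters and in enhancers, and many enhancers lie in introns far from a start site. p50 and p52 are processed from the precursors p105 and p100, and neither has a transactivation domain of its own. RelA, the partner of p50 in the canonical pathway, and RelB, the partner of p52 in the non-canonical pathway, carry such domains. Dimers of p50 or p52 without a Rel partner can also occupy κB sites.

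Of the primer pairs that the study designed for single regions, the pairs that fell into a balanced distal intragenic region were those for IL2RA, the alpha chain of the interleukin-2 receptor, and TP73, a relative of the tumor suppressor p53. They are shown because they mark the exact segment that can be amplified from these regions. The positions are in hg18 and were computed from the listed distances to the TSS. Capitals are not used, since no part of a primer was singled out.
IL2RA, first primer: gctgcatgcgtgacatctcg
IL2RA, second primer: aggaccggaagcagagacca
TP73, first primer: gcatgtctcctggttggtaa
TP73, second primer: tcagttcacactcagccaag

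The IL2RA amplicon of 115 bp, chr10:6133140-6133254, lay in the region chr10:6132498-6133762 inside IL2RA, 10516 bp downstream of its TSS. This region held 272 reads of p50, 336 of p52, 67 of RelB and 27 of RelA. Relative to input p50 was enriched 53.9-fold, p52 71.4-fold and RelB 16.0-fold, and RelA had no call. The TP73 amplicon of 121 bp, chr1:3580450-3580570, lay in the region chr1:3579251-3581374, 20262 bp downstream of the closest TSS. It held 512 reads of p50, 595 of p52, 158 of RelB and 84 of RelA and was called for all 4 subunits. At TP73 the enrichment of p50 was 42.9-fold, that of p52 55.8-fold, that of RelB 13.6-fold and that of RelA 7.55-fold. Both regions were thus strongly enriched for p50 and p52 and less so for RelB, and they differed in the call of RelA.

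A subunit was called where its merged peak passed the thresholds of the authors for the irreproducible discovery rate (IDR) and the false discovery rate (FDR). Among the 2237 balanced distal intragenic regions, p50 was called in 1717 (76.8%) and p52 in 2013 (90.0%). Over all regions of the union the shares were 73.8% for p50 and 73.3% for p52, and nothing is read from this difference, since the ratio of both subunits chose the regions. RelB was called in 642 of the regions, or 28.7% (Wilson 95% interval 26.9 to 30.6), against 26.8% of all regions. The difference from all other regions was 2.23 points (Newcombe 95% interval 0.24 to 4.29), but it turned to -6.25 points (-8.84 to -3.59) among regions called for both p50 and p52. RelA was called in 55 of them, or 2.46% (1.89 to 3.19), against 3.31% of all regions. Intervals here and below cover the counting error over regions only, because merged calls leave no replicates to test on, and regions are not replicates.

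The most frequent combination was p50 with p52 alone, in 1052 regions (47.0%; 31.8% of the union). p50, p52 and RelB together without RelA were called in 473 regions (21.1%; 17.1% of the union). p52 was the only subunit called in 404 regions (18.1%; 19.8% of the union) and p50 the only one in 132 (5.90%; 21.2% of the union). All 4 subunits were called in 43 regions (1.92%; 2.35% of the union). In 79 regions neither p50 nor p52 was called, and 73 of these had a call of RelB alone. Such regions are in the union only because RelB or RelA was called, so that their RelB share is set by how the union was made. Of the 55 regions with RelA, 48 were also called for RelB, as were 437 of the 492 regions with RelA in the union.

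**Figure D1:**
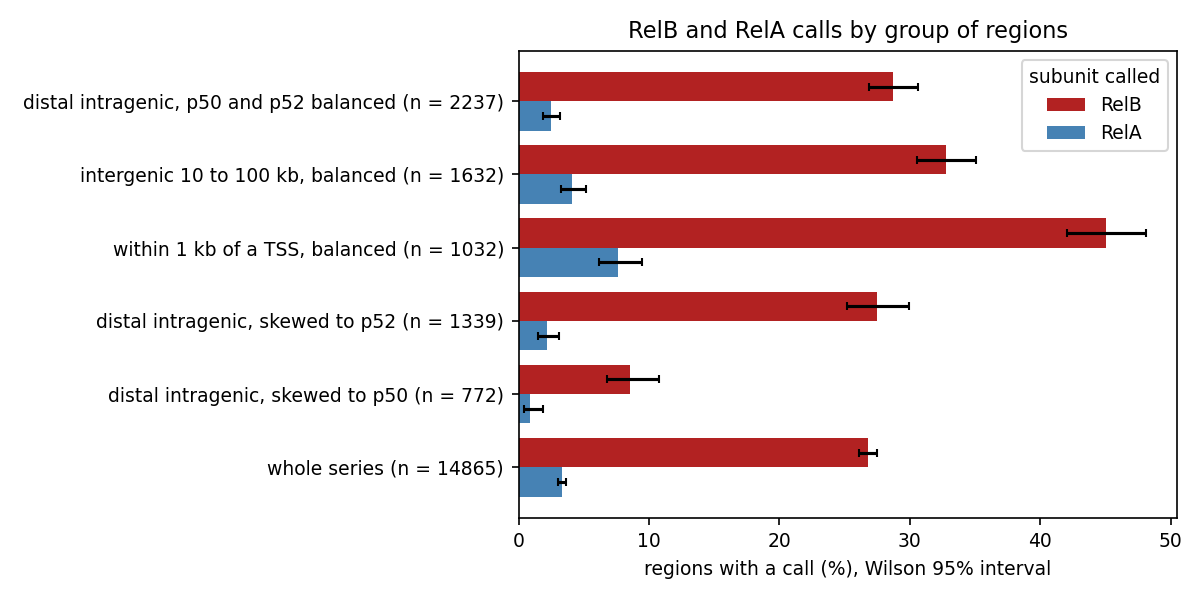
Share of regions called for RelB (red) and RelA (blue) in 5 groups of regions and in the whole series, with Wilson 95% intervals as error bars; the x axis is the percentage of regions. The balanced distal intragenic regions (28.7% RelB) sat below the balanced regions within 1 kb of a TSS (45.1%) and far above the distal intragenic regions skewed to p50 (8.55%).

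RelB was called less often in the balanced distal intragenic regions than at promoters with the same balance of p50 and p52. In the 1032 balanced regions within 1 kb of a TSS the RelB share was 45.1%, and the difference, intragenic minus promoter, was -16.4 percentage points (-19.9 to -12.8). RelA was also called less often, in 2.46% against 7.66%, a difference of -5.20 points (-7.07 to -3.56). The promoter regions were wider, with a median of 1418 bp against 842 bp (interquartile range 621 to 1152 bp), and the part of this width in the result was not tested beyond regions of up to 2000 bp, where the difference was -9.89 points (-13.8 to -6.06). A ratio threshold of 1 gave -10.1 points (-13.0 to -7.20).

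Against intergenic regions the difference was small. In the 1632 balanced regions outside genes and 10 to 100 kb from a TSS, which had a median width of 856 bp, RelB was called in 32.8%. The difference was -4.08 points (-7.04 to -1.14), and among regions called for both p50 and p52 it was -4.35 points (-8.02 to -0.70). The interval reached 0 when distal was set to beyond 20 kb, with -3.16 points (-6.55 to 0.19), and with the stricter IDR of 0.001, with -2.72 points (-5.86 to 0.36). For RelA the shares were 2.46% and 4.11%, a difference of -1.65 points (-2.86 to -0.52). Of 11 intergenic and 4 balanced distal intragenic regions with a high background (a quotient of pileup and fold enrichment above 5 times its median for a subunit), 10 and 4 were called for RelA. Without them the RelA difference was -1.23 points (-2.38 to -0.17) and the RelB difference -3.88 points (-6.83 to -0.94).

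Among the other distal intragenic regions, the comparison depended on which calls entered for those skewed to p52 but not for those skewed to p50. The 772 regions skewed to p50 were called for RelB in 8.55%, and the balanced regions exceeded them by 20.1 points (17.3 to 22.8). With only regions called for both p50 and p52, this difference was 20.5 points (15.2 to 24.8). The 1339 regions skewed to p52 were called for RelB in 27.5%, within 1.22 points of the balanced ones (-1.85 to 4.22). Among regions called for both p50 and p52, however, RelB was called in 32.8% of 1572 balanced and in 56.0% of 482 p52-skewed regions, a difference of -23.2 points (-28.1 to -18.1). Only 36.0% of the p52-skewed regions were called for p50, which the rule itself favours. At a ratio threshold of 1 in place of 0.7, the difference over all calls was 5.78 points (2.35 to 9.01).

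RelB calls also varied with the ratio within the balanced range. Among balanced regions called for both p50 and p52, RelB was called in 47.1% (42.4 to 51.9) of the 420 regions with a log2 ratio from -0.7 to -0.35, where p52 reads prevailed. The share was 34.5% of 478 regions from -0.35 to 0, 27.0% of 400 from 0 to 0.35, and 16.4% (12.5 to 21.3) of 274 from 0.35 to 0.7. The lowest and the highest of these ranges differed by 30.7 points (24.0 to 36.9). Over all balanced regions, whatever their calls, the shares at these ends were 35.2% and 16.1%, which differ by 19.1 points (13.8 to 24.0). In the regions called for both p50 and p52, the median p52 reads per kb were 165 and 94.3 at the ends and those of p50 103 and 122. The ranges themselves set the ratio of the subunits but not their density. The median density, the mean of both subunits per kb after scaling to the sums, was 76.3 at the p52 end and 62.2 at the p50 end. Over all balanced regions it was 56.28 and 56.35. The comparison was repeated within quartiles of the read density of p50 and p52, again only in the 1572 regions called for both. In the top quartile of density RelB was called in 56.4% of the 429 such regions with a ratio below 0 and in 35.4% of the 243 others, a difference of 21.0 points (13.2 to 28.4). In the second and the third quartile the differences were 11.9 points (3.77 to 20.03) and 10.4 points (2.73 to 17.9). In the lowest quartile, with 57 regions called for both on each side, the difference was 1.75 points (-12.6 to 16.1), so that none was detectable there.

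**Figure D2:**
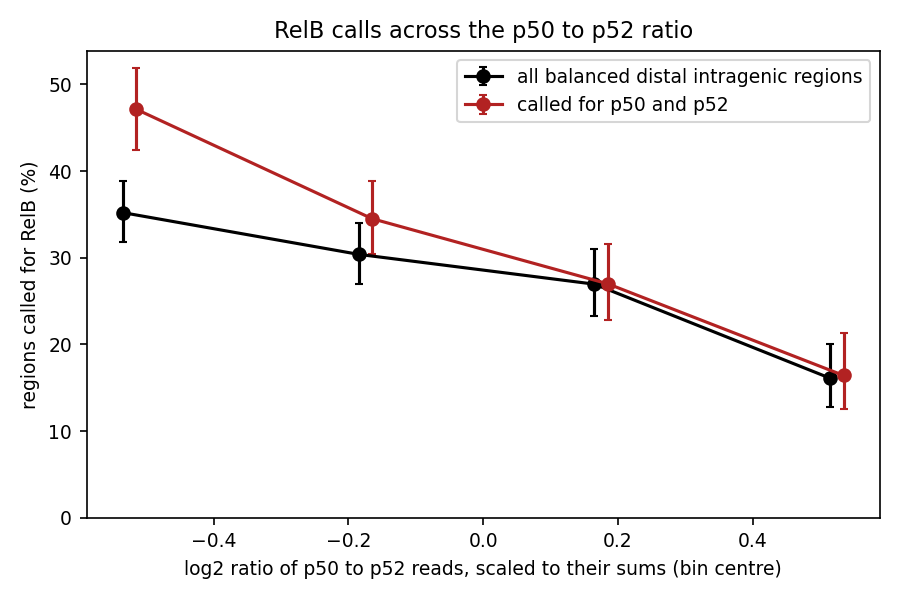
Share of balanced distal intragenic regions called for RelB (y axis, percent) against the log2 ratio of p50 to p52 reads in 4 ranges (x axis, centre of the range), for all regions (black) and for those called for both p50 and p52 (red), with Wilson 95% intervals. The share went from 47.1% at the p52 side to 16.4% at the p50 side in regions called for both.

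Just inside 0.7 lay a region in ENSG00000142599 with a ratio of 0.70, 137 reads of p50 and 92 of p52, and just outside it a region in ARHGEF7 with 48 and 32 reads. Just inside -0.7 lay a region in GNA12, a G protein subunit gene, with 53 reads of p50 and 95 of p52, and just outside it a region in ENSG00000105875 with 58 and 104. At the distance limit, the nearest regions inside and outside lay 10004 and 9935 bp from a TSS. In the adjoining log2 ranges of width 0.2 on either side of 0.7, RelB was called in 16.1% of 199 distal intragenic regions inside and in 14.5% of 179 outside. On the p52 side the shares were 35.8% of 405 inside and 35.9% of 379 outside.

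The density of p50 and p52 reads, that is the mean of both subunits per kb after scaling to the sums, was divided into quartiles over all 14865 regions. Of the balanced distal intragenic regions, 378, 543, 630 and 686 fell into the quartiles from lowest to highest. RelB was called in 48.4% (44.7 to 52.1) of the densest, in 21.0% of the third quartile and in 13.6% of the second. The lowest quartile had 27.5%, but 64 of its 378 regions had neither p50 nor p52 called, and without these the share was 13.7% (10.3 to 17.9). The RelB share thus rose with density from the second quartile on.

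In the densest quartile the intergenic regions had a RelB share of 54.9%, and the difference, intragenic minus intergenic, was -6.54 points (-12.1 to -0.89), whereas in the lower 3 quartiles the intervals of this difference included 0. The promoter regions had higher RelB shares at the same density in the upper 3 quartiles, with differences of -10.2, -19.7 and -19.8 points from the second to the highest. In the lowest quartile the difference from promoters was -5.14 points (-14.1 to 3.34), and -12.1 points (-20.8 to -4.13) without the regions that had neither p50 nor p52 called. Against the p52-skewed regions it was 13.5 points (7.93 to 19.1) in the lowest quartile, and 5.57 points (0.98 to 10.4) without such regions. In the highest quartile it was -11.5 points (-17.9 to -4.94), so that its sign turned with density in either case.

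**Figure D3:**
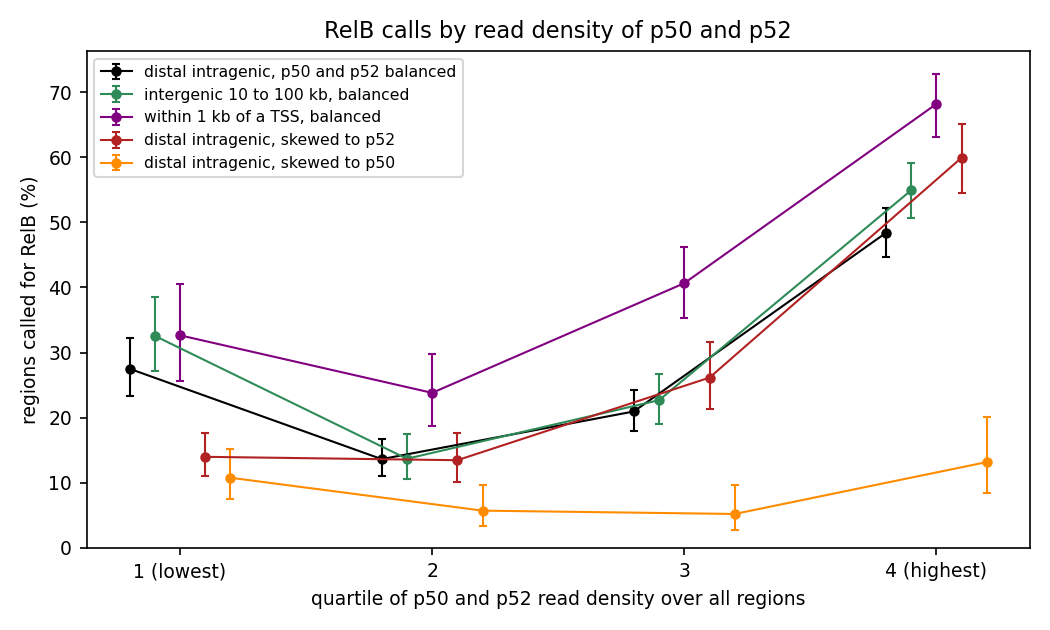
Share of regions called for RelB (y axis, percent, Wilson 95% intervals) by quartile of p50 and p52 read density over all regions (x axis) in 5 groups of regions, with points shifted sideways for legibility. The balanced distal intragenic regions (black) reached 48.4% in the highest quartile, below the promoter regions (purple, 68.2%).

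Fold enrichment, the ratio of merged ChIP to input at the summit, was highest for p50 and p52. In balanced distal intragenic regions with the respective call the medians were 17.3 for p50 and 17.3 for p52, and 9.82 (9.17 to 10.3) for RelB and 6.41 (5.80 to 7.08) for RelA. The median RelB enrichment was 9.33 (8.80 to 9.96) in the intergenic and 9.98 (9.21 to 10.5) in the promoter regions, with intervals that overlapped that of the balanced distal intragenic regions. It was 10.9 (9.93 to 11.8) in the distal intragenic regions skewed to p52 and 6.28 (5.84 to 7.13) in those skewed to p50, the latter below the RelB intervals of the other groups named here. Regions called for p50, p52 and RelB were also the more enriched for p50 and p52. Their medians were 25.1 for p50 and 29.6 for p52 in 516 regions, against 16.4 and 17.9 in the 1056 regions called for p50 and p52 without RelB. In the 79 regions without p50 and p52, RelB was called in 76 at a median of 5.97.

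The missing call of RelB did not mean an absence of RelB reads. The RelB read density had a median of 42.3 reads per kb (interquartile range 33.6 to 58.1) in the 642 called regions and of 17.5 (11.6 to 24.2) in the 1595 others. Of the latter, 489 (30.7%) reached 22.5 reads per kb, and 13 had no RelB read at all. The value of 22.5 is the 5th percentile over all regions of the union that were called for RelB. For RelA, 420 of 2182 uncalled regions (19.2%) reached 22.3 reads per kb, the corresponding value over all regions of the union called for RelA. Called and uncalled regions thus overlapped in read density for both subunits.

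**Figure D4:**
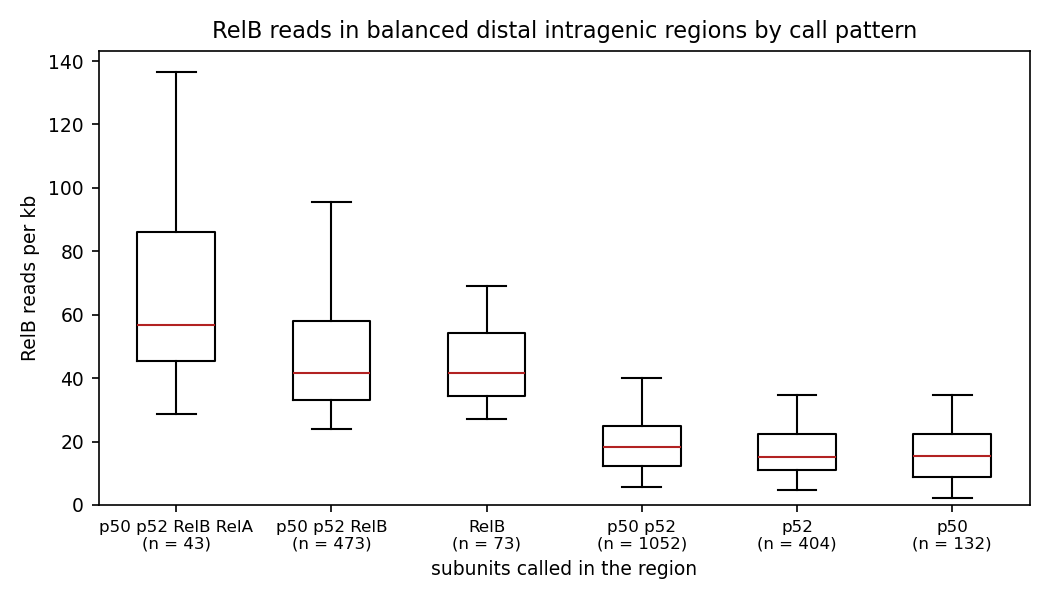
RelB reads per kb (y axis) in balanced distal intragenic regions with the 6 most frequent combinations of calls (x axis); boxes show the quartiles with the median in red, and whiskers the 5th and 95th percentiles. Regions called for RelB had medians of at least 41.6 reads per kb, and those without it of at most 18.3, with overlapping whiskers.

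The signal values of the replicates are the only measure of the spread between them. Across balanced distal intragenic regions with a call, the correlation of both signal values was 0.78 (Pearson) and 0.74 (Spearman) for p50 in 1717 regions, and 0.81 and 0.77 for p52 in 2013. It was 0.51 and 0.47 for RelB in 642 regions and 0.05 and 0.04 for RelA in 55. These correlations are across regions of the same libraries and selected by agreement of the replicates, and are given as a description. The ranks of RelA regions were thus hardly shared by the replicates. The log2 of the median RelB signal value was lower in the balanced distal intragenic than in the intergenic regions with either signal value. The differences were -0.09 and -0.04, with a mean of -0.06. No interval over regions was computed for them. The median RelB fold enrichment of the same regions went the other way, with 9.82 against 9.33 and overlapping intervals.

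The summits of the subunits nearly coincided. In the 1572 regions called for p50 and p52 the summits of both differed by a median of 10 bp, and in 1518 of them (96.6%) by no more than 250 bp. The median distance from the RelB summit was 16 bp for p50 in 529 regions and 17 bp for p52 in 553. In all regions of the union these medians were 11, 17.5 and 19 bp.

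The balanced distal intragenic regions lay at a median of 41131 bp from the closest TSS (interquartile range 22277 to 83580, largest 927165 bp). The RelB share was 28.6% of 462 regions at 10 to 20 kb, 29.3% of 830 at 20 to 50 kb, 32.2% (28.2 to 36.5) of 481 at 50 to 100 kb and 24.1% (20.5 to 28.2) of 464 beyond. The last of these ranges was 8.09 points (2.35 to 13.7) below the preceding one. These ranges held the lowest and the highest share, and the interval makes no allowance for the choice of this pair. The share at 10 to 20 kb had an interval of 24.6 to 32.9, which overlapped that of the last range. The closest TSS was that of the gene they lay in for 1537 regions, all downstream of it. For the other 700 (31.3%, 29.4 to 33.2) it belonged to another gene, with 431 upstream and 269 downstream of that TSS. RelB was called in 28.4% of the former and in 29.3% of the latter, a difference of 0.85 points (-3.13 to 4.97). Assignment of the balanced distal intragenic regions to genes by position and by TSS thus gave different genes in 31.3% of the cases.

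The regions lay in 1444 genes, of which 1031 held 1 region, 230 held 2, and 183 held 3 or more. The 47 genes with 5 or more held 298 regions, with a RelB share of 30.9% (25.9 to 36.3) against 28.1% (25.5 to 30.9) in genes with 1. A region within 1 kb of the own TSS was found for 335 of the genes. The RelB share of the distal regions was 28.4% in genes without such a region, 30.3% where the promoter region was not called for RelB and 28.4% (22.3 to 35.5) where it was. The latter pair differed by -1.88 points (-9.80 to 6.55).

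Regions at most 10 kb apart formed 282 clusters with 657 regions (29.4%), the largest of 6. Among pairs of neighbours in a cluster, the second region was called for RelB in 41 of 105 pairs (39.0%, 30.3 to 48.6) when the first was, and in 74 of 270 (27.4%, 22.4 to 33.0) when it was not. The difference was 11.6 points (1.22 to 22.4), and pairs of the same cluster can share a region.

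Genes are named where the tables at hand paired their Ensembl identifier with a symbol, which held for 1132 of 8450 identifiers and for 247 of the 1444 genes with a balanced distal region. Otherwise the identifier is given.

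KCNMA1, which encodes the pore-forming subunit of a calcium-activated potassium channel, held the most regions, 12 over 744 kb. They had 7 to 42 RelB reads, with a median of 14, and only the region chr10:78439830-78441138 was called for RelB, at a fold enrichment of 16.0. That region had 235 reads of p50 and 288 of p52, the highest of the 12. ITPKB, a kinase that phosphorylates inositol trisphosphate, held 11 regions within 72.0 kb, all called for p50 and p52, and 7 of them for RelB. Over all balanced distal intragenic regions the RelB share was 28.7%. The ITPKB regions had 8 to 89 RelB reads with a median of 43, and the RelB enrichment of the called ones was 3.87 to 9.24. KCNMA1 and ITPKB thus held nearly as many regions, on spans of different length. Their RelB calls rest on few regions, and the difference between these genes was not tested.

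ACOXL, named for its similarity to acyl-CoA oxidases, held 11 regions over 312 kb, 2 of them with RelB, at 13.8-fold and 8.36-fold enrichment. ARHGEF7, a guanine nucleotide exchange factor, held 8 regions over 130 kb, with 10 to 23 RelB reads and no RelB call. 3 of the 8 had the TSS of ARHGEF7 as the closest, and the other 5 lay upstream of the TSS of another gene. ENSG00000196090 held 9 regions, all at least 658 kb from the closest TSS, with 3 RelB calls and a highest RelB enrichment of 28.9 at a region with 171 RelB reads. ENSG00000116473 held 8 regions, 3 with RelB, and another TSS was closer to all 8 than its own. The other 4 genes among the first 10, ENSG00000038382, ENSG00000038532, ENSG00000071051 and ENSG00000168675, held 8 regions each, with 1, 1, 3 and 2 RelB calls. Beside the RelB share of 28.7% over all balanced distal intragenic regions, counts on 8 to 11 regions per gene are a description only.

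**Figure D5:**
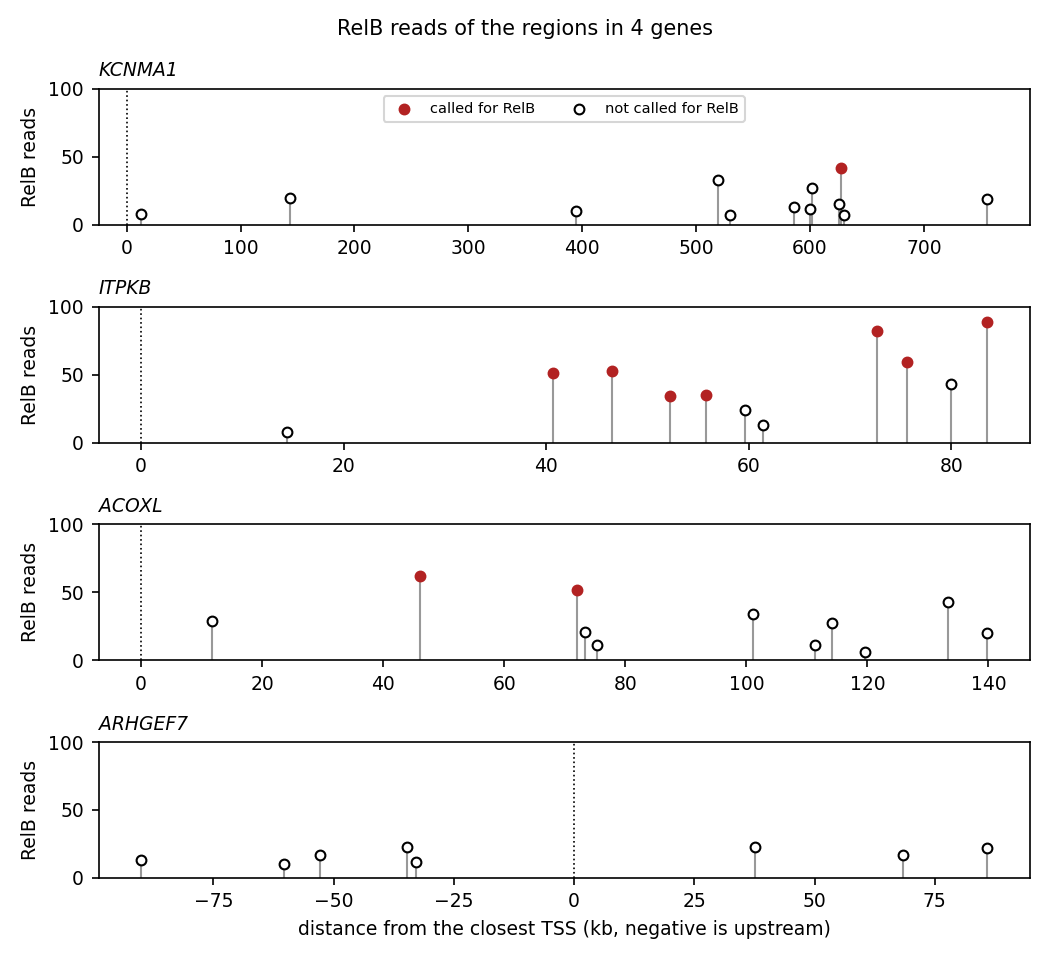
RelB reads (y axis) of the balanced distal regions in KCNMA1, ITPKB, ACOXL and ARHGEF7 against the distance from the closest TSS in kb (x axis, negative is upstream, dotted line at the TSS; the scale differs between genes); filled points are regions called for RelB. ITPKB had 7 called regions of 11, KCNMA1 had 1 of 12 and ARHGEF7 had 0 of 8, against 28.7% of all balanced distal intragenic regions.

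The highest RelB enrichment was found in ENSG00000104951, at chr19:55089820-55093263. It lay at a distance of -16292 bp, that is upstream, from the TSS of AKT1S1, a substrate of the kinase AKT and part of the mTORC1 complex. The region held 1279 reads of p50, 1747 of p52, 553 of RelB and 208 of RelA, with a RelB enrichment of 53.1 and RelB signal values of 3044 and 4702 in the replicates. Its p52 enrichment was 85.1. The next 9 regions by RelB enrichment had values from 46.8 down to 36.9, all were called for p50 and p52, and 4 also for RelA. Among them was a region of ATP11A, a phospholipid-transporting ATPase, chr13:112529812-112531228, with 145 RelB reads and a RelB enrichment of 36.9. The region in ENSG00000160299, chr21:46615666-46616296, differed from the rest in that RelB had more reads, 142, than p50 with 81 and p52 with 113.

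The highest RelA enrichment, 15.4, was at chr16:11180934-11185469 in ENSG00000038532, with 162 RelA and 258 RelB reads, and this region also had a p52 enrichment of 102. The next was a region in ENSG00000053254, with 45 RelA reads and an enrichment of 11.4, which was not called for RelB at 42 RelB reads. JAKMIP1, which encodes a microtubule-associated protein that binds Janus kinases, had a region called for all 4 subunits at chr4:6233143-6234259, with a RelA enrichment of 10.5 and 60 RelA reads. Since the replicates hardly shared the rank of RelA regions, the order among these is uncertain.

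Genes of NF-κB signalling were examined as a list. Of 18 listed genes, 11 had an identifier with a symbol, and 3 of them held 4 balanced distal regions. NFKB1, which encodes p105 and p50, held 2 regions with 12 and 41 RelB reads, both called for p50 and p52 only. RELB held 1, at 14598 bp from its TSS, with 84 RelB reads and a RelB enrichment of 13.0. TNIP1, an inhibitor of NF-κB signalling that binds TNFAIP3, held 1 region without RelB, with 25 RelB reads. Thus 1 of the 4 was called for RelB and none for RelA, against 28.7% and 2.46% of all balanced distal intragenic regions.

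Of 34 listed B cell and lymphoid transcription factors, 15 had a named identifier and 8 held 18 balanced distal regions, 5 of them (27.8%) with RelB, close to the 28.7% of all balanced distal intragenic regions. PAX5, which maintains B cell identity, held 4 regions, of which 3 were called for RelB with 101, 103 and 106 RelB reads. The remaining PAX5 region, closest to the TSS, had 27. Both regions in BATF, an AP-1 family factor, were called for RelB, with 28 and 34 reads. The 4 regions of FOXP1 had 3 to 25 RelB reads, and the 3 of ETS1 had 3, 27 and 45, with no RelB call in either gene. The remaining genes of this list with balanced distal regions had no RelB call either. Differences between single genes were not tested.

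Of 22 listed genes of cytokine and TNF receptor signalling, 8 had a named identifier and 4 held 7 regions. 5 of the 7 were called for RelB, against 28.7% of all balanced distal intragenic regions, which on 7 regions is a description only. CD86, a costimulatory ligand, held 3 regions with 64, 25 and 37 RelB reads, of which the first and the last were called. CD40, a member of the TNF receptor family that activates the non-canonical pathway, held 1 region with 137 RelB reads and a RelB enrichment of 20.7. IL21R, the receptor of interleukin-21, held 1 with 89 RelB reads and an enrichment of 17.9. The second region of IL2RA had 9 RelB reads and was not called.

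Of 11 listed genes of survival and cell death, 7 had a named identifier. Of these, 3 held 4 regions, 0 of them called for RelB. At a share of 28.7% over all balanced distal intragenic regions this is too few to read. TP73 is on the list, but its identifier had no symbol, so these counts leave out its regions. The gene with the TP73 amplicon held regions with 15, 158, 81 and 51 RelB reads. All but the first of them were called for RelB. BCL2, an inhibitor of apoptosis, held 2 regions with 18 and 19 RelB reads, and BCL2L11, which encodes the proapoptotic BIM, held 1 with 6. Among 9 listed adhesion and cytoskeleton genes, 5 had a named identifier, and CDH1, which encodes E-cadherin, and ARHGAP24, a GTPase-activating protein, held 3 regions each, 1 with RelB in each gene (33.3% of the 6). The called region of CDH1 had 97 RelB reads and a RelB enrichment of 30.4, the others 22 and 14 reads. The called region of ARHGAP24 had 45 RelB reads, the others 9 and 14. The 1 named of 6 listed housekeeping genes held none.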

How the data were processed

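ChIP-seq reads were mapped by the authors with Bowtie to hg18. Uniquely mapping reads without PCR duplicates were kept and libraries were randomly reduced to 10000000 reads. The deposited counts are whole reads per union region from merged replicates, without normalization; whether they precede the reduction is not stated. The deposited fold enrichment is a ratio of merged ChIP to input, given by MACS, and the deposited pileup is the coverage at the summit. The IDR, a fraction computed between replicates, and the FDR, a q-value, are the authors', with stated thresholds of 0.05; every listed IDR was below 0.01. The deposited signal values are a score per replicate of unstated scale, and which replicate each belongs to is not given. Distances are the authors', from Ensembl version 54.

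Shares were computed with Wilson and differences with Newcombe 95% intervals, and medians with order statistic intervals, tested on simulated data. No p-value was computed. Named are the 10 genes with most regions, the 10 highest RelB and 5 highest RelA regions, up to 4 genes per list and genes with primers, of which 1 gene is not reported here. The regions and gene lists were chosen with earlier results of these data known. Sequences of the regions and their exonic or intronic position were not analysed here. The tools were pandas 2.3.3, numpy 2.4.6, scipy 1.17.1 and matplotlib 3.10.9 under Python 3.11.15. Alternatives were other ratio thresholds, centring, pseudocounts, distances, call thresholds, and removal of wide or high background regions.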

Additional observations from a re-analysis of the deposited data

How the results depend on the processing

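Of 132 values recomputed under alternatives, 116 stayed within the interval of the reported value, or within 1.5 times it for counts. Not counted are the IDR of 0.01, which every listed call met, and the signal values taken alone, whose spread is that of the values themselves. A ratio threshold of 0.5 or 1 gave 74.1% and 65.1% of regions called for p50 and p52 together (70.3% as reported), and a pseudocount of 5 gave 67.6%. A threshold of 1 moved the RelB difference from promoters to -10.1 points and from p52-skewed regions to 5.78, and leaving out regions wider than 2000 bp moved the former to -9.89. An IDR of 0.001, the restrictions to regions called for p50 and p52 or for either of them, and the RelA difference without high background were chosen after seeing the data. At an IDR of 0.001 the RelB share was 20.2%, the RelA share 1.48%, the share of p50, p52 and RelB 15.7%, the RelB difference from promoters -11.4 points and from p50-skewed regions 16.1, and the median RelB enrichment 13.6. Among regions called for p50 and p52 the RelB share was 32.8% and the difference from p52-skewed regions turned from 1.22 to -23.2 points. At a ratio threshold of 0.5 that difference was -0.94 points (-3.99 to 2.12). Summits of p50 and p52 lay within 50 bp in 89.8% and within 100 bp in 95.04%. With either signal value alone, the log2 difference of RelB from intergenic regions was -0.09 or -0.04.

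No paired analysis was possible because the counts and calls exist only for merged replicates. The 55 called regions limit the precision of RelA values, and what depth contributes was not tested.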
